A study of Homo sapiens with 6 samples.

Results

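MUC13 and 5 other genes that gut-type epithelial cells are known for, MUC1, VIL1, CDH17, LGALS4 and TSPAN8, were followed in Huh7-R cells after fostamatinib treatment. The genes were found by their symbols, and 6 of 6 were present among the 16305 genes of the data. MUC13 was selected on its large rise after fostamatinib in these same samples, so its change is given as a description without a test. The other 5 genes were chosen by name as companions of MUC13, with earlier results of these data known.

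Huh7 cells come from a human liver cancer (hepatocellular carcinoma), and Huh7-R, named Huh7SR in the sample labels, is a pool of them that is resistant to the kinase inhibitor sorafenib. All 6 samples were Huh7-R cells. The 3 treated samples received 2 µM fostamatinib, a kinase inhibitor, for 24 h, and the 3 control samples received the vehicle DMSO for the same time, for which the labels also give 2 µM. The labels say that each treatment was applied in triplicate but not whether the cells came from separate cultures. The p-values therefore rest on the spread between these samples, pooled over genes, which may be technical.

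Mucins are large glycoproteins whose protein backbone carries dense O-linked sugar chains. MUC13 and MUC1 stay in the apical membrane of epithelial cells, where their extracellular part forms a protective coat and their cytoplasmic part can take part in signalling. The apical surface of an intestinal absorptive cell is a brush border of microvilli, whose actin bundles are held together by villin (VIL1). CDH17 is liver-intestine cadherin, an adhesion protein of the basolateral membrane, LGALS4 is a galectin that binds sugars of glycoproteins and glycolipids in gut epithelium, and TSPAN8 is a tetraspanin that organises membrane complexes. The transcription factor HNF4A is active in both hepatocytes and enterocytes, while CDX2 is the classical intestinal factor.

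Sequences upstream of the start site are shown for MUC13 and for the 3 other genes with a RefSeq window, because these genes moved differently although they are grouped together as gut-type genes. Each sequence is the 250 bases before the start on the sense strand, written 5′ to 3′, from RefSeq on GRCh38.p14. Coordinates are chr3:124934752-124935001 for MUC13, chr1:155192916-155193165 for MUC1, chr12:71157810-71158059 for a start of TSPAN8 and chr19:38812946-38813195 for LGALS4, each on the - strand of the chromosome. Capitals mark matches, on either strand, to the motifs CAAAG for HNF4, TTTATG for CDX factors, AGATAA for GATA factors, TGACTCA for AP-1, TTCNNNGAA for STAT factors, GCGTG for the xenobiotic response element, CCAAT for the CAAT box and TATAA for the TATA box.

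MUC13: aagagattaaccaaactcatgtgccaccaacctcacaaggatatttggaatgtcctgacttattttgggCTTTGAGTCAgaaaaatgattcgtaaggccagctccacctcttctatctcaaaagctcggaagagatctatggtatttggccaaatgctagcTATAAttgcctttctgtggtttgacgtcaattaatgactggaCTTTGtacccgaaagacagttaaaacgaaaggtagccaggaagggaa
MUC1: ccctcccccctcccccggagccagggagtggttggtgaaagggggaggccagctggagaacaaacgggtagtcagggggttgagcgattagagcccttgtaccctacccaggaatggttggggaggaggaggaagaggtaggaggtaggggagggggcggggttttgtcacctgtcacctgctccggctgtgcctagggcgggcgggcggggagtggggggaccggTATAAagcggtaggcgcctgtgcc
TSPAN8: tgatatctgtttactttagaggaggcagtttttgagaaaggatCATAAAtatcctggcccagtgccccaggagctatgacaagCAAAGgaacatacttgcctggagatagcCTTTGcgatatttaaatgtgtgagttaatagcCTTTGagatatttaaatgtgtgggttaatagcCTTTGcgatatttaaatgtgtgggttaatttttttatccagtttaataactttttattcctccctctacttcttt
LGALS4: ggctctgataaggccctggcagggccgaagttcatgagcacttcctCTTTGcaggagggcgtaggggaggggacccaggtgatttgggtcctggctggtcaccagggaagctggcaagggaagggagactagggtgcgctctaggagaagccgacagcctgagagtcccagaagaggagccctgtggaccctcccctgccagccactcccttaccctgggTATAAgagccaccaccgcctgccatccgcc

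The MUC13 window held an AP-1 match 178 bases before the start, HNF4 matches at 181 and 47 bases and TATAA at 89 bases. The AP-1 match and the HNF4 match at 181 bases overlap in the run CTTTGAGTCA. Among 15211 such windows of genes in the data, 3.1% held the AP-1 letters, 35.9% the HNF4 letters and 11.9% TATAA. The printed TSPAN8 window held HNF4 matches at 167, 139, 107 and 75 bases, the last 3 of these in a repeated stretch, and a CDX match at 207 bases (5.6% of windows). The window of another TSPAN8 start, not printed, held no HNF4 match and a CDX match 17 bases before that start. The MUC1 and LGALS4 windows each held TATAA at 30 or fewer bases before the start, and LGALS4 also held an HNF4 match. These matches describe letters and not bound sites.

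The deposited values are log2 CPM, the log2 of library-scaled reads after adding 0.5 to every count, and whole reads could be recovered from them. The samples held 13303451 to 15272737 reads on the 16305 genes. In limma's test of fostamatinib against DMSO with Benjamini-Hochberg adjustment, 47.8% of all 16305 passed at an adjusted p below 0.05, 23.3% higher and 24.5% lower, and 3.85% rose and 3.29% fell by more than 2-fold. In 54.1% of all genes the 3 samples of one group did not overlap with the 3 of the other. A gene was kept by the authors when it had 5 or more reads in 2 of 3 samples of either group, so a gene below this under DMSO is present only because it was high under fostamatinib. List counts therefore cover the genes that reached the minimum in both groups, and the others are named with their reads as a description. Testing only the 15126 genes that reached it in both groups called 3637 higher and 3899 lower.

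MUC13 (ENSG00000173702), at chr3:124624289-124672663 (- strand, GRCh37), had 197, 209 and 207 reads in the DMSO samples. It had 1924, 1923 and 1896 reads after fostamatinib. The 2 groups were far apart and the samples of each group lay close together. On the log2 CPM scale its level went from 3.81 ± 0.031 (SD, n = 3) to 7.12 ± 0.043 under fostamatinib (SD, n = 3). The log2 fold change was 3.31 with a standard error (SE) of 0.059, or 9.94-fold. Among the 11719 genes that averaged 50 or more reads in either group, this was rank 9 of the rises. The genes just above it were GSTA1 (4.03), GSTA2 (3.87) and CPS1 (3.64), and those just below were CYP1A1 (3.24), APOA1 (3.19) and APOC3 (3.18). GSTA1, GSTA2 and CYP1A1 act in detoxification, CPS1 is the first enzyme of the urea cycle, and APOA1 and APOC3 are lipoprotein components. GSTA1 and GSTA2 are near-identical copies whose reads may have been split between them. Leaving out each sample in turn gave MUC13 values from 3.29 to 3.34.

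MUC1 (ENSG00000185499), the other cell-surface mucin of the 6 genes, went the opposite way. It lies at chr1:155158300-155162707 (- strand, GRCh37), where another annotated gene on the same strand, not analysed here, overlaps with it. MUC1 had 62, 50 and 59 reads under DMSO and 24, 21 and 19 under fostamatinib. Every treated sample was below every control sample. Its log2 CPM fell from 1.97 ± 0.229 (SD, n = 3) to 0.66 ± 0.150 (SD, n = 3), a log2 difference of -1.31 with SE 0.22 (limma adjusted p = 4.75e-06).

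Of the other mucins, 2 of the 12 listed were in the data. MUC15, a further membrane mucin, rose from 337, 340 and 383 reads to 533, 584 and 548, a log2 difference of 0.74 with SE 0.07 (limma adjusted p = 5.26e-11). MUC5B, a gel-forming secreted mucin, had only 4 to 14 reads in any sample, with a log2 fold change of -0.45 and an adjusted p of 0.441 from limma. The secreted intestinal mucin MUC2 and the membrane mucins MUC3A, MUC4, MUC12 and MUC17 were among those not analysed here. MUC13 accounted for 31.4% to 34.5% of the reads on the 4 mucins measured in the DMSO samples and for 75.9% to 77.4% after fostamatinib.

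**Figure D1:**
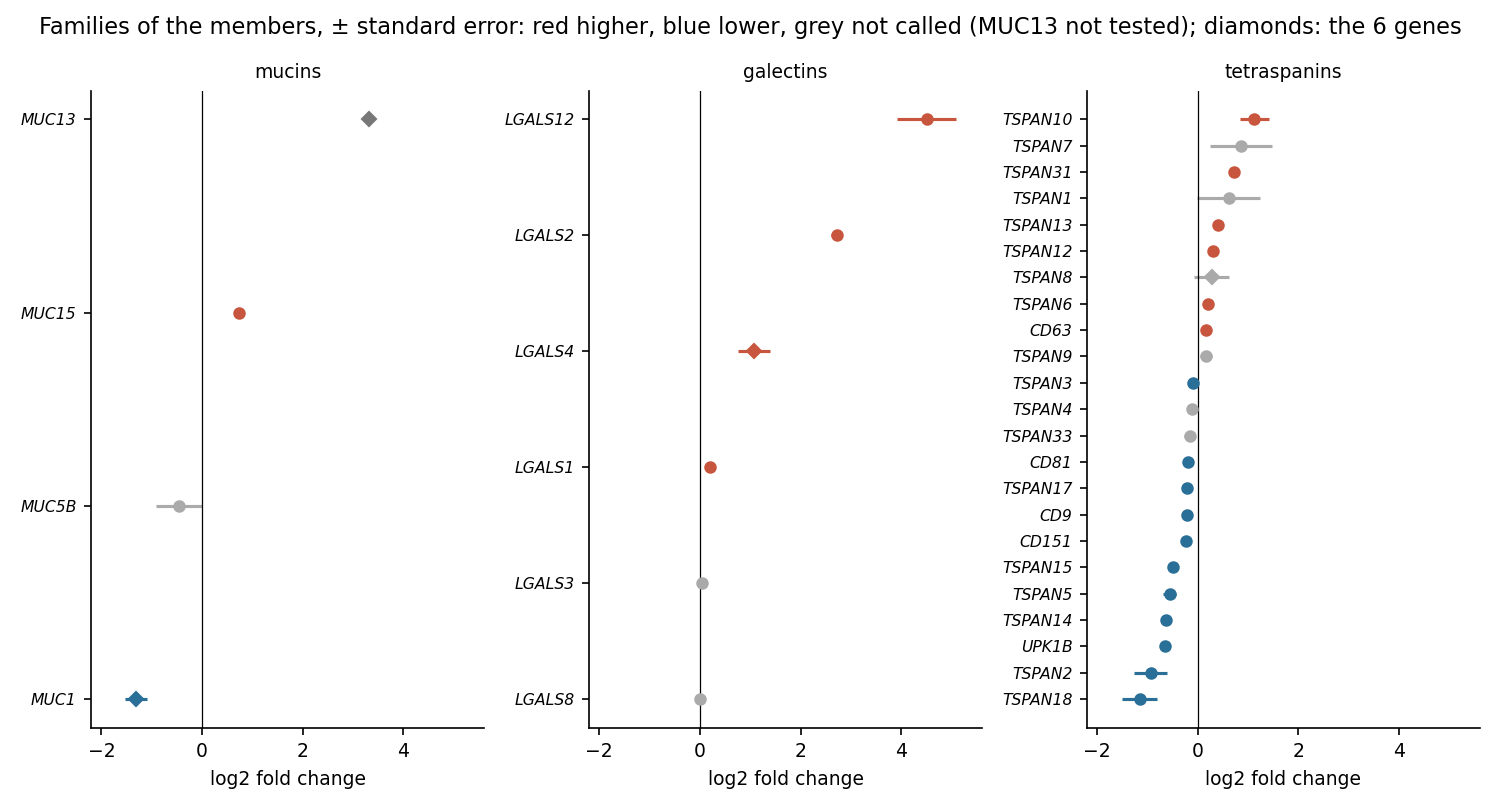
Log2 fold change (fostamatinib against DMSO) ± standard error of each measured mucin, galectin and tetraspanin, with red for higher and blue for lower at an adjusted p under 0.05 from limma, grey for the rest and for the untested MUC13, and diamonds for the 6 genes. MUC13 at 3.31 and MUC1 at -1.31 lie at opposite ends of the mucins, and TSPAN8 at 0.27 lies inside the spread of the tetraspanins. LGALS12 was kept only through the treated samples, so its red is a description without a test.

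The enzymes that build mucin-type sugar chains did not move in one direction. Of 15 that reached the minimum in both groups, 4 rose and 7 fell (all genes: 23.3% and 24.5%). Their median log2 fold change was -0.11 (all genes 0.002). GALNT10, a transferase that starts a chain, fell with a log2 fold change of -0.63 (adjusted p = 1.30e-12, limma), and GALNT11, of the same family, rose with 0.45 (adjusted p = 3.80e-08). C1GALT1, which makes the core structure extended on most O-glycans, fell with -0.45 (adjusted p = 4.35e-07). GCNT3, a branching enzyme of mucin-producing epithelia, fell with -0.42 (adjusted p = 4.87e-07), and its relative GCNT4 rose with 0.46 (adjusted p = 1.89e-03).

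VIL1 (ENSG00000127831), at chr2:219283844-219318018 (+ strand, GRCh37), encodes villin, which bundles and severs actin in microvilli. It had 922, 1012 and 1055 reads under DMSO and 1848, 1857 and 1797 under fostamatinib. The groups did not overlap, and the treated samples were nearly alike. VIL1 rose from a mean log2 CPM of 6.09 ± 0.053 (SD, n = 3) under DMSO to 7.06 ± 0.030 under fostamatinib (SD, n = 3), a log2 difference of 0.97 with SE 0.048 (limma adjusted p = 1.54e-18), or 1.96-fold. Its span is shared with USP37 on the other strand, which fell with -0.36 (adjusted p = 1.25e-04, limma). The libraries were made with a directional kit, but the strand setting of the read counting is not given in the sources used here.

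Genes of the brush border rose more often than they fell. Without VIL1, 14 of the list reached the minimum in both groups, of which 9 rose, 2 fell and 3 did not pass the test. Their median log2 fold change was 0.38, and 6 of the 9 rose by more than 2-fold. Among all genes 23.3% rose, 24.5% fell and 3.85% rose by more than 2-fold. PDZK1, a scaffold that anchors transporters under the apical membrane, had 21, 30 and 22 reads under DMSO and 132, 219 and 166 under fostamatinib, a log2 difference of 2.88 with SE 0.18 (limma adjusted p = 6.59e-16). USH1C (harmonin), part of the complex that links the tips of microvilli, went from 148, 208 and 152 reads to 577, 585 and 534, with 1.84 (SE 0.088, limma adjusted p = 7.56e-19). Both genes were separated between the groups in every sample.

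MISP, an actin-bundling protein, rose with 1.61 (SE 0.076, limma adjusted p = 5.49e-19). SLC9A3R1 (NHERF1), which ties ezrin to membrane proteins, rose with 1.18 (SE 0.051, limma adjusted p = 2.72e-20). The falls were smaller, with -0.34 for BAIAP2L1 (adjusted p = 2.65e-07) and -0.23 for PLS1, the plastin of microvilli (adjusted p = 1.20e-02). ESPN (2.10) and ANKS4B (1.43), chosen for mention after their values were seen, also rose, but from 3 to 13 reads in the DMSO samples. MYO1A, with 3, 10 and 2 reads under DMSO and 23, 33 and 16 under fostamatinib, was kept only through the treated samples. EPS8, MYO1D and CDHR2 did not pass the test, with log2 differences of 0.02, 0.04 and 0.40.

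CDH17 (ENSG00000079112), at chr8:95139390-95229531 (- strand, GRCh37), had 201, 285 and 289 reads under DMSO and 472, 495 and 456 under fostamatinib. DMSO sample 1 was the lowest of all, and every treated sample was above every control. CDH17 rose from a mean log2 CPM of 4.13 ± 0.224 (SD, n = 3) under DMSO to 5.11 ± 0.009 under fostamatinib (SD, n = 3), a log2 difference of 0.98 with SE 0.085 (limma adjusted p = 6.14e-12), or 1.98-fold. Without DMSO sample 1 the value was 0.86.

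Of the other adhesion and tight junction genes, 21 reached the minimum in both groups, with 11 higher, 5 lower and 5 not passing the test. Their median log2 fold change was 0.32, and among all genes 23.3% were higher and 24.5% lower. TJP3, a scaffold of tight junctions, rose with 1.54 (SE 0.072, limma adjusted p = 3.65e-19). CLDN2, the claudin that forms cation pores in leaky epithelia, rose with 1.20 (SE 0.17, limma adjusted p = 3.60e-07), and CGN (cingulin) by 0.996 (adjusted p = 1.13e-18). CLDN1, a sealing claudin and the most abundant of the claudins measured per exon length, fell from 8934, 9051 and 9655 reads to 3653, 3455 and 3523, a log2 difference of -1.29 with SE 0.041 (limma adjusted p = 4.90e-24). E-cadherin (CDH1) rose with 0.43 (adjusted p = 9.91e-11), and N-cadherin (CDH2) fell with -0.21 (adjusted p = 1.33e-05). Desmosome genes were divided: DSG2 (-0.37) and PKP2 (-0.27) fell, JUP (0.62) and DSP (0.41) rose, each with a limma adjusted p of at most 5.06e-06, and DSC2 (0.07) did not pass the test. JUP, DSP and DSC2 were added after their values were seen. The log2 fold change of EPCAM, a general epithelial surface protein, was 0.17 (limma adjusted p = 0.0234). It did not pass the test without DMSO sample 1 (adjusted p = 0.0733), DMSO sample 2 (0.0548), fostamatinib sample 2 (0.0552) or fostamatinib sample 3 (0.18).

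LGALS4 (ENSG00000171747), at chr19:39292311-39303585 (- strand, GRCh37), was barely detected, with 8, 10 and 13 reads under DMSO and 22, 18 and 22 under fostamatinib. The groups did not overlap. Its log2 CPM rose from -0.46 ± 0.288 (SD, n = 3) to 0.62 ± 0.210 (SD, n = 3), a log2 difference of 1.08 with SE 0.33 (limma adjusted p = 6.46e-03). The 95% confidence interval ran from 0.41 to 1.74.

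LGALS2, another galectin of gut epithelium, showed a larger change, from 51, 61 and 47 reads to 330, 328 and 324, a log2 difference of 2.71 with SE 0.12 (limma adjusted p = 3.65e-20). LGALS12, chosen for mention after its values were seen and kept only through the treated samples, had 1, 1 and 0 reads under DMSO and 21, 22 and 22 under fostamatinib. The log2 fold change of LGALS1, an abundant galectin, was 0.19 (limma adjusted p = 2.65e-04), and its call was lost in limma without a mean-variance trend (adjusted p = 0.0746). LGALS3 and LGALS8 had log2 fold changes of 0.04 and -0.01 that did not pass the test. Of the 4 other galectins that reached the minimum in both groups, 2 rose and 2 did not pass the test (all genes: 23.3% higher and 24.5% lower).

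TSPAN8 (ENSG00000127324), at chr12:71518865-71835678 (- strand, GRCh37), did not pass the test. It had 23, 10 and 11 reads under DMSO and 18, 15 and 14 under fostamatinib. The groups overlapped, since DMSO sample 1 was the highest of the 6 samples and the other DMSO samples were the lowest. Its log2 difference was 0.27 with SE 0.35 (limma adjusted p = 0.552). The 95% confidence interval ran from -0.44 to 0.98, so at this depth a small fall and a rise as large as that of VIL1 could not be told apart. Without DMSO sample 1 it was 0.68 (adjusted p = 0.148), and without DMSO sample 2 it was 0.03.

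LGR5, a receptor of intestinal stem cells whose annotated span overlaps with that of TSPAN8 on the other strand, rose from 53, 52 and 60 reads to 156, 187 and 147, a log2 difference of 1.65 with SE 0.14 (limma adjusted p = 1.57e-12). Of the 20 other tetraspanins that reached the minimum in both groups, 6 rose and 11 fell (all genes: 23.3% and 24.5%). Their median log2 fold change was -0.18. The largest among the better-covered ones were a rise of TSPAN31 (0.73, adjusted p = 1.26e-09) and falls of UPK1B (-0.64, adjusted p = 8.17e-08) and TSPAN14 (-0.62, adjusted p = 7.97e-13).

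**Figure D2:**
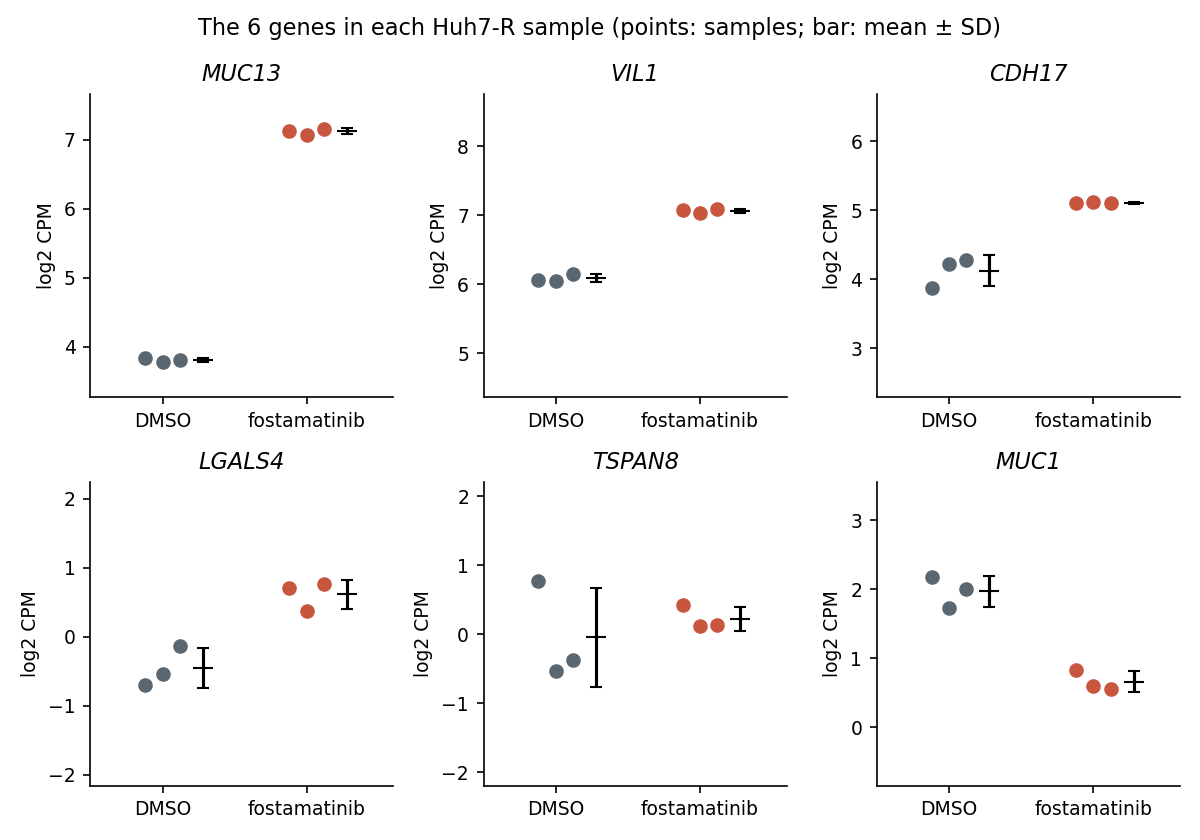
Log2 CPM of the 6 genes in each of the 3 DMSO and 3 fostamatinib samples of Huh7-R cells, with the mean and SD of each group as a bar and the same axis span in every panel. MUC13 shows the widest gap, VIL1, CDH17 and LGALS4 moved up by about the same distance, MUC1 moved down, and the TSPAN8 samples overlap.

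Of the 5 genes besides MUC13, 3 rose, 1 fell and 1 did not pass the test, against 23.3% higher and 24.5% lower among all genes. The log2 differences of VIL1, CDH17 and LGALS4 lay between 0.97 and 1.08, a spread smaller than the SE of LGALS4, and that of MUC13 was 3.31. RPKM, which divides reads by exon length and library size, allows levels of different genes to be compared. In DMSO samples the order was VIL1 at 9.88 ± 0.369 RPKM (SD, n = 3), CDH17 at 4.53 ± 0.674, MUC13 at 4.0 ± 0.087, MUC1 at 1.63 ± 0.255, TSPAN8 at 0.42 ± 0.232 and LGALS4 at 0.32 ± 0.069. CDH17 and MUC13 overlapped between samples, as did TSPAN8 and LGALS4. After fostamatinib MUC13 led with 39.8 ± 1.18 RPKM (SD, n = 3), followed by VIL1 at 19.4 ± 0.403 and CDH17 at 8.89 ± 0.056. LGALS4 at 0.68 ± 0.096 and MUC1 at 0.65 ± 0.071 then overlapped, above TSPAN8 at 0.47 ± 0.061. MUC13 moved from the 51.6th to the 93.7th percentile of all genes by RPKM.

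**Figure D3:**
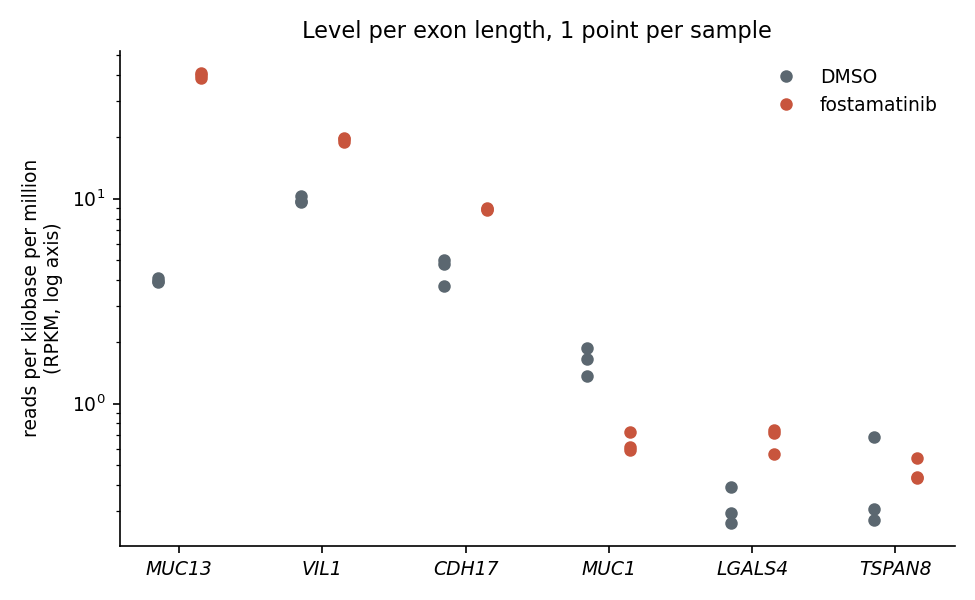
RPKM of the 6 genes on a log axis, 1 point for each sample, with DMSO in grey and fostamatinib in red. MUC13 lies beside CDH17 and below VIL1 in the DMSO samples and above both after fostamatinib.

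Among transcription factors of the intestine, 8 of the 14 listed were measured, of which 4 rose, 2 fell and 2 did not pass the test. Among all genes 23.3% rose and 24.5% fell. The median log2 fold change of the 8 was 0.37 (all genes 0.002). CDX2, the master regulator of intestinal identity, had 54, 63 and 51 reads under DMSO and 179, 172 and 148 under fostamatinib, a log2 difference of 1.65 with SE 0.13 (limma adjusted p = 1.09e-12). HNF4A went from 2055, 2315 and 2225 reads to 4194, 4333 and 4051, with 1.02 (SE 0.039, limma adjusted p = 8.40e-22). In both genes every treated sample was above every control sample. In the DMSO samples CDX2 was at 1.09 RPKM and HNF4A at 14.8 RPKM. GATA6 (0.83) and GATA4 (0.65) also rose, each with an adjusted p of at most 9.74e-12.

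HNF4G, the intestinal relative of HNF4A, fell with a log2 fold change of -0.72 (adjusted p = 1.57e-06, limma), and KLF4, a factor of differentiated epithelium, fell with -0.98 (adjusted p = 3.94e-11). KLF5 (0.09) and ELF3 (-0.01) did not pass the test. All 3 of the listed factors that hepatocytes are also known to use (HNF4A, GATA4, GATA6) rose. Of the 5 others 1 rose and 2 fell (all genes: 23.3% and 24.5%). This split was made after the values were seen. CDX1 was not analysed here.

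Enterocyte genes were only partly represented, with 10 of the 25 listed in the data. Hepatocytes are also known to use 7 of the 10, and the 3 others are SLC15A1, SI and MEP1A. This split too was made after the values were seen. Of the 10 genes, 5 reached the minimum in both groups, of which 2 rose, 2 fell and 1 did not pass the test (all genes: 23.3% higher and 24.5% lower). Their median log2 fold change was 0.22. ANPEP (aminopeptidase N), an enzyme of the brush border and of bile canaliculi, rose with 0.93 (SE 0.046, limma adjusted p = 1.43e-18). The log2 fold change of APOB, the structural protein of large lipoproteins, was 0.22 (limma adjusted p = 6.90e-05), and its call was lost without a mean-variance trend (0.0916). CEACAM1 fell with -0.51 (adjusted p = 3.52e-04) and DPP4 with -0.13 (adjusted p = 0.016). The log2 fold change of DPP4 did not pass without DMSO sample 3 (adjusted p = 0.0534), without fostamatinib sample 1 (0.0928) or without a trend (0.0874). The peptide transporter SLC15A1 was at 0.36 (limma adjusted p = 0.124).

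The other 5 enterocyte genes were kept only through the treated samples, so their values are a description with no test. APOA4, an apolipoprotein of intestinal lipid particles, went from 6, 3 and 4 reads to 103, 123 and 99. FABP1, the fatty acid binding protein of liver and small intestine, had 3, 6 and 2 reads and then 26, 32 and 23. Sucrase-isomaltase (SI) had 1, 1 and 0 reads under DMSO and 8, 7 and 3 under fostamatinib, and the glucose transporter SLC2A2 had 2, 7 and 3 and then 8, 13 and 18. MEP1A, a brush border protease, had 3, 1 and 3 reads and then 5 in each treated sample. FABP2 and KRT20 were not analysed here.

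**Figure D4:**
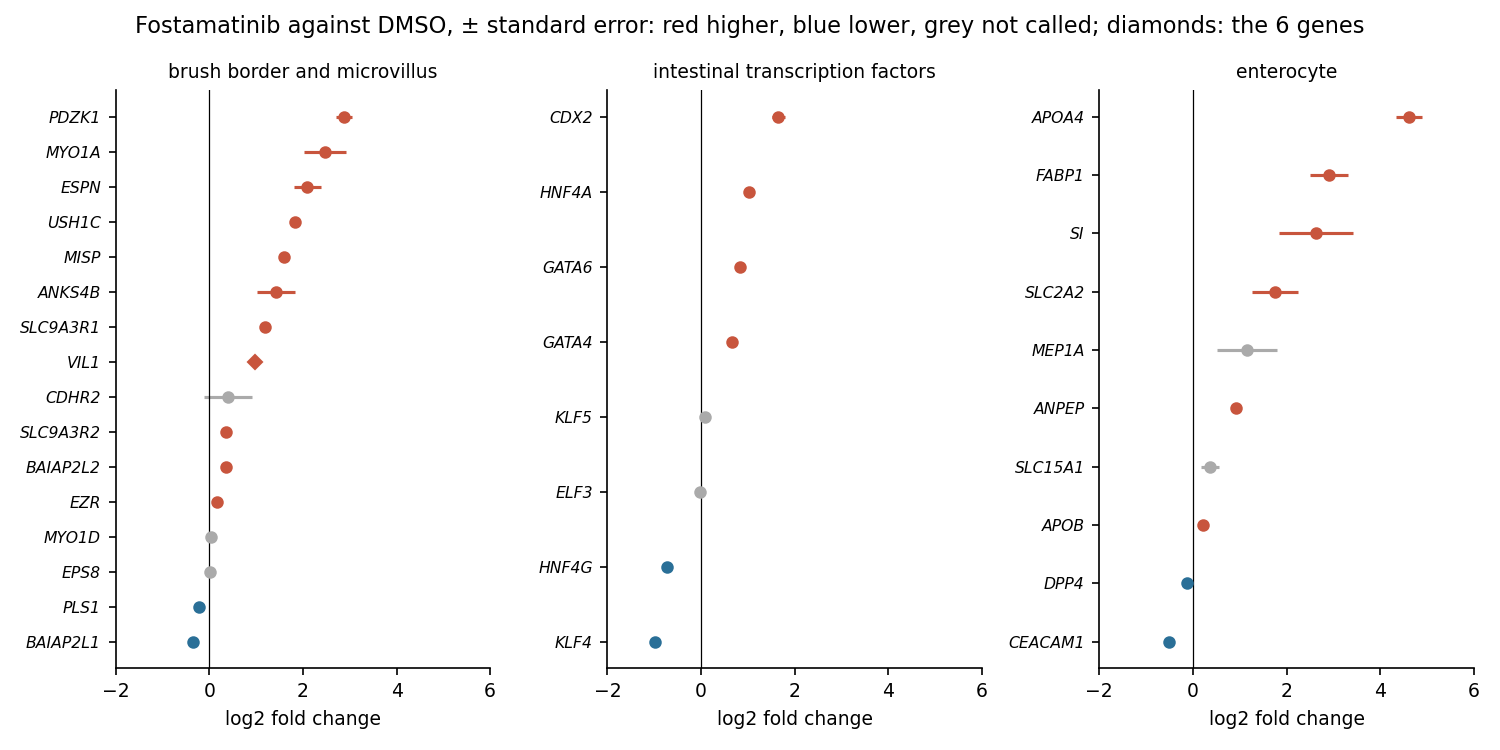
Log2 fold change (fostamatinib against DMSO) ± standard error of the measured genes of the brush border, of intestinal transcription factors and of enterocytes, with red for higher and blue for lower at an adjusted p under 0.05 from limma and grey for the rest. Of the brush border genes other than VIL1 that reached the minimum of reads in both groups, 9 of 14 are red (all genes: 23.3% higher). Of the enterocyte genes that reached it, only ANPEP and APOB are red. MYO1A, APOA4, FABP1, SI and SLC2A2 were kept only through the treated samples, so their red is a description without a test.

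Of 13 goblet and secretory genes 2 were measured. Beside the counts in this paragraph, 23.3% of all genes were higher and 24.5% lower. AGR2, a protein disulfide isomerase needed for mucin folding, rose from 2001, 2390 and 2268 reads to 6367, 6809 and 5956, a log2 difference of 1.61 with SE 0.04 (limma adjusted p = 2.68e-27). SPINK1, a trypsin inhibitor, rose with 0.14 (adjusted p = 8.91e-03). Of 4 stem and Paneth cell genes measured, LGR5 and RNF43 (0.63, adjusted p = 9.00e-06) rose, PROM1 fell with -0.89 (adjusted p = 1.85e-18) and LYZ was at 0.01. In the villin family, 6 others reached the minimum in both groups. VILL (0.45, adjusted p = 6.27e-03), CAPG (0.15, adjusted p = 0.0238) and AVIL (1.40, adjusted p = 5.83e-05) rose, and SVIL (-0.53, adjusted p = 6.98e-12) and FLII (-0.10, adjusted p = 0.0269) fell, while GSN did not pass the test. AVIL was named although it averaged under 50 reads in both groups, with 25, 13 and 13 under DMSO and 35, 44 and 44 under fostamatinib. Several of the smaller changes depended on which samples were used. In this test the log2 fold change of SPINK1 did not pass without fostamatinib sample 2 (adjusted p = 0.0561), nor did the log2 fold change of VILL without fostamatinib sample 1 (0.0525). Similarly, the log2 fold change of CAPG did not pass without DMSO sample 1 (0.0901), DMSO sample 3 (0.0844), fostamatinib sample 1 (0.169) or fostamatinib sample 2 (0.0843), and the log2 fold change of FLII did not pass without DMSO sample 1 (0.0505), DMSO sample 2 (0.138) or fostamatinib sample 2 (0.173).

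Hepatocyte genes moved in the same samples. The 12 hepatocyte markers were all measured and all 12 rose (all genes: 23.3%), with a median log2 fold change of 0.54. Their summed level was 1220 to 1300 RPKM in DMSO and 1660 to 1740 RPKM after fostamatinib. Of the 12, AFP had the highest level, with means of 598 RPKM in DMSO and 743 RPKM after fostamatinib. Among those averaging 50 or more reads in the higher group, APOA1 (3.19), AMBP (1.01), FGB (0.74) and TF (0.65) led the rises, each with a limma adjusted p of at most 1.67e-10. Of 8 biliary markers 2 rose and 4 fell (all genes: 23.3% and 24.5%), with a median log2 fold change of -0.19. KRT19 (0.25, adjusted p = 1.80e-06) rose, and SPP1 (-1.82, adjusted p = 9.64e-15), SOX9 (-0.47), CD24 (-0.22) and SOX4 (-0.165) fell. The summed level of the 7 with a known length was 140 to 146 RPKM in DMSO and 157 to 161 RPKM after fostamatinib. Most of it was KRT19, at 97.9 RPKM in DMSO and 116 RPKM after fostamatinib, and CD24 was the marker left out. EPCAM stands among both the adhesion genes and the biliary markers, and 1 biliary marker rose where any of the 4 samples on which the call of EPCAM depended was left out. Of 12 markers of immune, endothelial and stromal cells, 6 were measured, 4 higher and 1 lower (all genes: 23.3% and 24.5%). The summed level of the 5 with a known length was 69.5 to 71.8 RPKM in DMSO and 60.1 to 62.5 after fostamatinib, most of it from LUM (-0.40) and COL1A2 (0.37), while the immune markers PTPRC, CD3E and CD68 and the endothelial marker CDH5 were not analysed here. The part of these lists in the changes of the 6 genes was not tested. In bulk RNA, more cells of a kind and more RNA per cell cannot be told apart.

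The rise of MUC13 was not shared by the nearest tested gene on either side of it on chromosome 3. Of the 3 nearest tested genes on each side of MUC13, 1 rose, 3 fell and 2 did not pass the test. ITGB5, an integrin subunit 4.0 kb away, fell with a log2 fold change of -0.12 (adjusted p = 0.043, limma). HEG1, a mucin-like membrane protein 11.9 kb away on the other side, fell from a mean of 10190.7 reads to 2704.7, with -1.82 (SE 0.038, limma adjusted p = 2.70e-29). KALRN, 179.1 kb away, was the 1 that rose (0.65, adjusted p = 8.43e-03). Of the 6 nearest non-overlapping genes of VIL1, none rose at an adjusted p under 0.05 and CNOT9 and ZNF142 fell. Beside CDH17 none rose and RAD54B fell with -0.64. Beside LGALS4, 3 of 6 rose (ECH1 0.58, CAPN12 1.29 and ACTN4 0.19) and HNRNPL fell with -0.13. MUC1 had 1 rise among its 6 neighbours (THBS3, 0.70), and TSPAN8 had 1 rise (ZFC3H1, 0.22) and falls of PTPRR (-1.68) and PTPRB (-1.81). Genes whose spans overlap with those of the 6 genes were not counted as neighbours. The tested ones were USP37 at VIL1, which fell (-0.36), and LGR5 at TSPAN8, which rose (1.65). Among all genes 23.3% rose and 24.5% fell, and counts out of 6 are too few to tell these places apart.

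**Figure D5:**
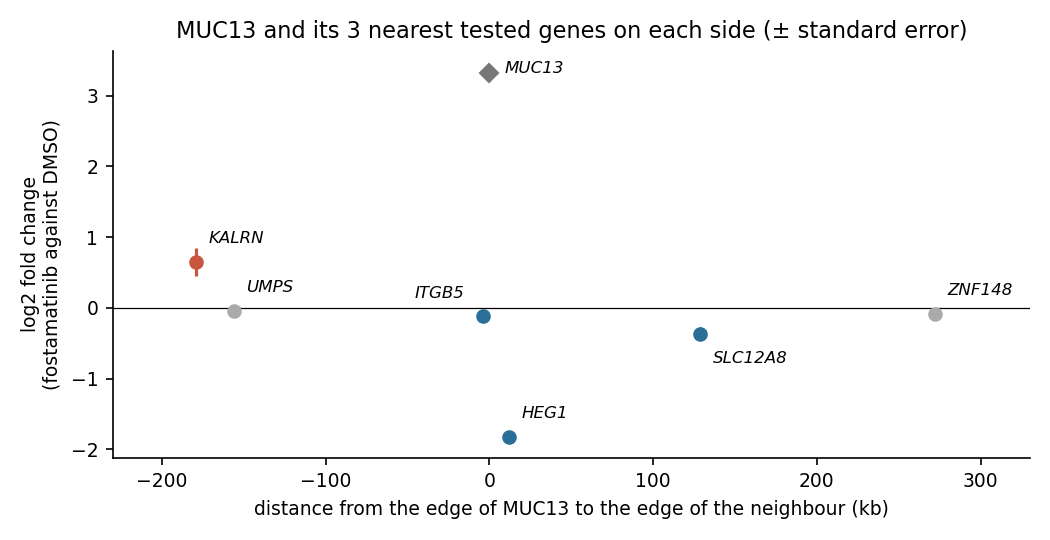
Log2 fold change ± standard error of MUC13 and of the 3 nearest tested genes on each side, against the distance in kb between gene edges, with red for higher, blue for lower and grey for not called or, for MUC13, not tested. MUC13 stands at 3.31 and its neighbours lie between -1.82 for HEG1 and 0.65 for KALRN.

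The genes most like MUC13 over the 6 samples, by Pearson's r of log2 CPM among 11718 other genes averaging 50 or more reads in either group, were CYP1A1 (r = 0.99994), CIDEB (0.99978), HNF4A (0.99964), APOA1 (0.9996) and SLC25A42 (0.99958). The 6 points share their libraries and fall into 2 groups, and 365 genes had r above 0.99. For VIL1 the highest were BTG1, DUSP9, CHDH, APOA1 and PBLD. CEBPA, a hepatocyte factor, was closest to CDH17 (r = 0.99798), and MAP3K7CL to MUC1 (r = 0.99812).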

How the data were processed

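RNA of 6 Huh7-R samples, 3 per treatment, was grouped by the sample titles. The authors mapped poly(A)-selected directional libraries with HISAT (hg19) and counted reads on genes by featureCounts (versions are not given in the sources used here). They dropped genes below 5 reads in most samples of both groups, scaled by TMM and deposited log2 CPM with 0.5 added per count. Genes outside the deposited values cannot be read as 0, and some items are not reported here.

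Whole reads were recovered from the log2 values (all within 0.05 of a whole number). The deposited values of 16305 genes were tested with limma 3.58.1 in R 4.3.3 (eBayes with trend, treatment as the single term), with Benjamini-Hochberg adjustment at 0.05; the script was tested on simulated data. The tests pool the spread over genes, and 3 against 3 samples allow no exact permutation p-value below 0.10. RPKM used merged exon lengths from GENCODE on GRCh37, which held 98.7% of the genes.

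The 6 genes and all lists were chosen with earlier results of these data known. Named are the 6 genes, up to 4 rises and 4 falls per list (adjusted p under 0.05, 50 or more reads on average in the higher group), certain transcription factors and enterocyte genes, EPCAM and CDH1, 3 tested neighbours per side within 1 Mb, and the 5 genes most alike. Alternatives were no trend, voom, RLE or library-size scaling, an offset of 2 reads, filters of 10 reads in every sample or the authors' minimum in both groups, a replicate block, list counts over genes reaching the authors' minimum in both groups (added after seeing the data), and omission of each sample.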

Additional observations from a re-analysis of the deposited data

How the results depend on the processing

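The values of the 6 genes kept their direction under every alternative that gave a value, and the 5 besides MUC13 kept their side of the threshold. LGALS4 has under 10 reads in a DMSO sample and drops out where 10 reads are required in every sample. The number of changed genes was 7794 and lay between 6382 (eBayes without a trend) and 7977 (replicate number as a block), and between 6958 and 7480 when each sample was left out. The shared replicate numbers do not pair the samples by the check on their deviations. With the replicate block the calls of the 5 genes besides MUC13 were the same, with MUC1 at -1.31 and LGALS4 at 1.08.

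Several list counts moved by more than 1.5 times. Counts in this paragraph include the genes kept through 1 group only. Without a trend, enzymes of mucin sugar chains called higher were 2 in place of 5, tetraspanins called lower 7 in place of 11, villin family genes (VIL1 included) 3 higher and 1 lower in place of 5 and 2, enterocyte genes called lower 1 and goblet genes called higher 1. The calls of APOB, LGALS1, DPP4, EPCAM, CAPG, FLII and SPINK1 were also lost without a trend. With 10 reads required in every sample 2 enterocyte genes and 2 galectins were called higher, and with the authors' minimum in both groups 2 enterocyte genes in place of 6, since the other 4 had been kept only through the treated samples. When each sample was left out, villin family genes called higher ranged from 3 to 4 and called lower from 1 to 2, enterocyte genes called lower from 1 to 2, and goblet genes and biliary markers called higher from 1 to 2 each. The log2 fold change of ELF3, not called, ranged from -0.057 to 0.020 when each sample was left out and was 0.017 without DMSO sample 2. The cause of these shifts was not tested. Same-numbered samples had deviation correlations of 0.028, -0.019 and 0.013. Few reads limit LGALS4, TSPAN8, MUC5B and several enterocyte genes.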
